A study of Mus musculus with 12 samples.

Results

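Hox genes encode homeodomain transcription factors that give cells their place along the head-to-tail axis of the embryo. They lie side by side in clusters, and the order of the genes along a cluster follows the order in which they act, from anterior genes at one end to posterior genes at the other. In the early germ line they are known as part of the somatic programme that is shut off when primordial germ cells form, and Polycomb proteins are known to keep silent clusters closed.

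The Hox genes of mouse male germ cells from the fetal and newborn testis are described here. The genes were chosen by symbol alone: every row of the count table whose symbol is Hox, a cluster letter from a to d and a number. This gave 39 of 55487 genes, 11 in the Hoxa cluster, 10 in Hoxb, 9 in Hoxc and 9 in Hoxd. No expression value was used to choose them. Of the 39, 31 reached 10 normalized counts in at least 3 of the 12 libraries and were tested. The 8 that did not were Hoxa2, Hoxa6, Hoxb8, Hoxc5, Hoxc11, Hoxd3, Hoxd4 and Hoxd12.

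The 12 libraries were RNA sequencing libraries of gonocytes, testis germ cells that have not yet become spermatogonia, with 3 libraries at each of 4 stages: days E13.5 and E16.5 of gestation, P0 (birth) and P3 (postnatal day 3). All cells came from mice with the Mvh-Venus transgene, in which a fluorescent protein is driven by Mvh (Ddx4), a germ line gene. Titles and source names call every sample WT, whereas the genotype tag reads Morc1 (+/-) at E13.5 and P0 and Morc1 (-/-) at E16.5 and P3. Groups were therefore formed by stage only, and a genotype difference, if the tag holds, cannot be told apart from stage in the comparisons of consecutive stages. Transcript of Morc1, a chromatin gene of male germ cells, averaged 1697 ± 115 normalized counts at E13.5 and 31378 ± 2641 at E16.5, then 7496 ± 214 at P0 and 10881 ± 276 at P3, so it was present in the stages tagged (-/-). What the mutant allele deletes is not given in the sources used here.

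Values are normalized counts, meaning reads of a gene divided by 1 size factor per library. Libraries are named by stage and by the column number 1, 3 or 4, and values are listed in that order. Every ± is an SD over 3 libraries. Fold changes are differences of log2(normalized count + 1), which understates changes of genes at low counts. They were tested with limma over all 22384 genes that passed the filter, and a gene was called at a Benjamini-Hochberg adjusted p under 0.05. Labels do not say whether the libraries of a stage came from separate animals, so p-values measure only the spread between these libraries.

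Depth was similar, with 40946616 to 51533747 reads assigned to genes per library. The germ cell markers were high at all stages, their 10 genes summing to 158092 to 314589 normalized counts per library. On this scale the P0 libraries were lowest, at 158092 to 169370. Size factors averaged 1.94 at P0, against 0.94 at E13.5, 1.13 at E16.5 and 1.01 at P3. Normalized totals were 2.30e+07 to 2.49e+07 at P0 and at least 3.61e+07 in every other library. Relative to these totals, the germ cell sums at P0 lay above those at E13.5 and P3. Markers of other testis cells were present too. The 15 markers of interstitial mesenchyme or peritubular cells summed to 2176 to 2411 at E13.5 and 2974 to 3408 at E16.5, then 6364 to 6540 at P0 and 2966 to 3580 at P3. The 12 Sertoli cell markers ranged from 3531 to 9016 before birth, from 13862 to 27075 at P0 and from 6691 to 8711 at P3, and the 7 Leydig cell markers ranged from 356 to 7857 over all libraries. All 7 mast cell markers were at 0 in the E13.5 libraries and summed to 1505 to 3210 at P0. In bulk libraries, fewer cells of a type and less RNA per cell cannot be told apart.

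Hox transcripts were a small part of each library. The 39 genes summed to 197, 177 and 193 normalized counts at E13.5, to 2143, 1869.9 and 1919 at E16.5, then to 3130.2, 2664 and 2692 at P0 and to 2356, 2142 and 2241 at P3. The E13.5 libraries were far below all others and the P0 libraries were highest, while E16.5 and P3 overlapped. Scaled to the reads assigned to genes (CPM), the sum was 3.36 to 3.63 at E13.5 and 48.9 to 54.9 at E16.5, then 112 to 126 at P0 and 50.2 to 54.1 at P3. On both scales E13.5 was lowest and P0 highest, but P0 stood further above P3 in CPM than in normalized counts, 126 against 54.1 for the highest libraries. A read of 14 to 16 of the 39 genes was seen in each E13.5 library, of 30 to 34 in each E16.5 library, of 37 to 39 at P0 and of 28 to 31 at P3. At E13.5, 20 genes had no read in any of the 3 libraries, against 5 at E16.5, none (0) at P0 and 4 at P3.

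**Figure D1:**
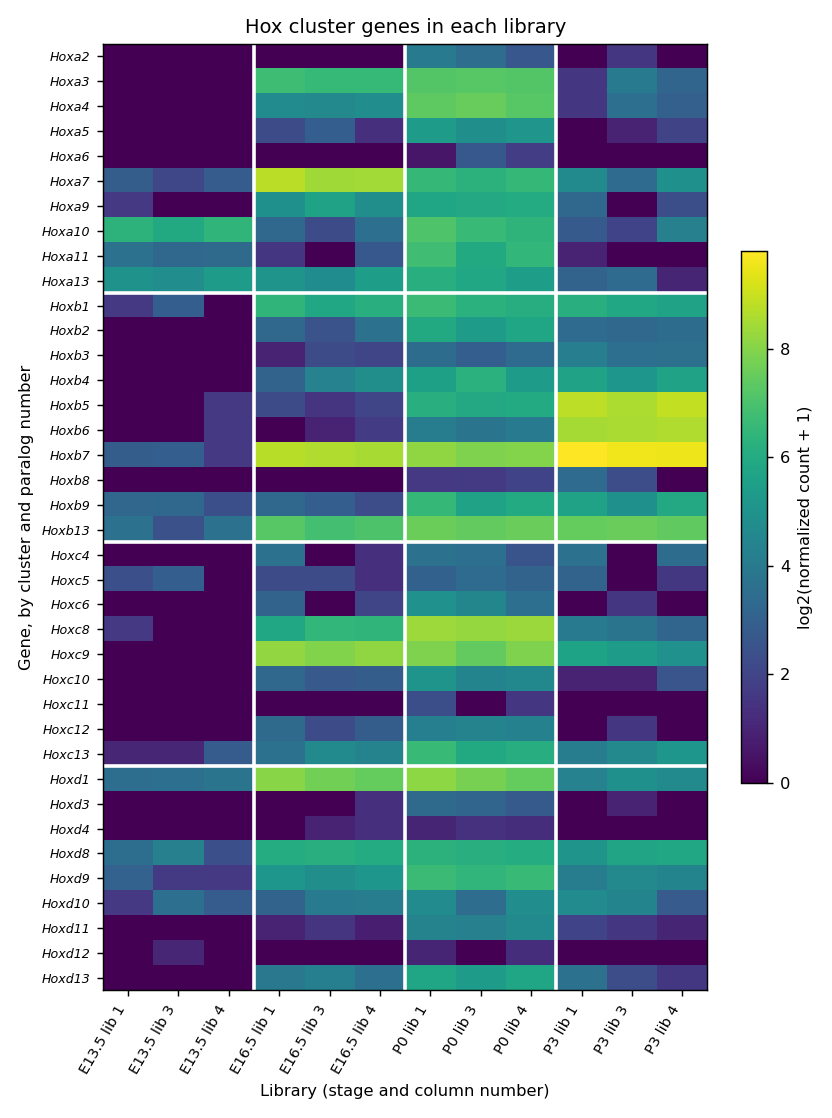
Each row is a Hox gene, ordered by cluster and paralog number, with 1 of the 39 not shown, and each column is 1 library, with colour giving log2(normalized count + 1). The E13.5 columns are dark except for Hoxa10, Hoxa13 and a few others, the P0 columns are filled in all 4 clusters, and at P3 the bright cells lie in the Hoxb cluster.

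The clusters contributed unequally at each stage. Hoxa held 65.3% of the Hox sum at E13.5 and 30.1% at E16.5, then 30.1% at P0 and 2.92% at P3. Hoxb held 13%, 32.3%, 28.0% and 87.8% at the same stages. Hoxc went from 3.75% to 20%, 24.5% and 4.10%, and Hoxd from 17.5% to 17.6%, 17.4% and 5.19%. No cluster thus held more than 32.3% at E16.5 or 30.1% at P0, whereas 1 cluster held 65.3% at E13.5 and 87.8% at P3. These shares are of counts not divided by exon length.

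Position along the cluster also differed between stages. Posterior genes (paralog groups 9 to 13, 16 genes) made up 78.2% of the Hox sum at E13.5 and 29.8% at E16.5, then 38.3% at P0 and 15.9% at P3. Central genes (groups 4 to 8, 15 genes) made up 14.3%, 49.3%, 39.4% and 78.6%. Anterior genes (groups 1 to 3, 8 genes) made up 7.51%, 20.9%, 22.3% and 5.44%. The genes behind these shares are described next by stage.

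At E13.5 the Hox signal was mostly that of 3 neighbouring posterior Hoxa genes. Hoxa10 (ENSMUSG00000000938, chr6:52231197-52240854, minus strand on GRCm38), known for its roles in the reproductive tract and in descent of the testis, had 79.2, 60.9 and 83.1 normalized counts, and it was the highest of the 39 genes at this stage also per kilobase of exon. Hoxa13 (ENSMUSG00000038203, chr6:52257694-52260880, minus strand), which patterns digits and the genital tubercle, had 31.7, 27.2 and 41.01. Hoxa11 (ENSMUSG00000038210, chr6:52242106-52245810, minus strand), which patterns the forearm and the kidney, had 11.6, 8.71 and 9.46. All 3 had reads in every E13.5 library and together made up 62.1% of the Hox sum, 118 ± 18.8 normalized counts; they were grouped after their values were seen. Hoxa2, Hoxa3, Hoxa4, Hoxa5 and Hoxa6, which lie toward the anterior end of the cluster, had no read at E13.5. A count of 0 in these libraries allows at most 3 reads per library. Outside the Hoxa cluster the means with the most counts at E13.5 were 11.4 ± 1.11 for Hoxd1 and 11.1 ± 7.16 for Hoxd8.

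The promoters of Hoxa10 and Hoxa13 are shown because these genes led at E13.5, and that of Hoxd1 because it was the highest Hoxd gene at E16.5 and the noncoding gene Haglr overlaps its window. Each run holds the 250 bases before a RefSeq start (GRCm38.p6), 5′ to 3′ on the gene's strand, with CpG pairs in capitals.

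Hoxa10, chr6:52240855-52241104, minus strand, outside any gene: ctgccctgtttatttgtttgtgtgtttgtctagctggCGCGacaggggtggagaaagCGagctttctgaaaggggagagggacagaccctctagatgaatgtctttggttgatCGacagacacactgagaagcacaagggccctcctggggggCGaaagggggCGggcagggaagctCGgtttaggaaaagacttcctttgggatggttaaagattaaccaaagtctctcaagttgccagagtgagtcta

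Hoxa10, inner start, chr6:52234940-52235189, minus strand, in a Hoxa10 intron: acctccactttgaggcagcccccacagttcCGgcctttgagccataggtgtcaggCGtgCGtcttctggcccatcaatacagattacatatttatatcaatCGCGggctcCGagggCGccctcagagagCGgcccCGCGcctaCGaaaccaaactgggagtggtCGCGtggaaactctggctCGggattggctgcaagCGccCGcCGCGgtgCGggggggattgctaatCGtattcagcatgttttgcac

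Hoxa13, chr6:52260881-52261130, minus strand, outside any gene: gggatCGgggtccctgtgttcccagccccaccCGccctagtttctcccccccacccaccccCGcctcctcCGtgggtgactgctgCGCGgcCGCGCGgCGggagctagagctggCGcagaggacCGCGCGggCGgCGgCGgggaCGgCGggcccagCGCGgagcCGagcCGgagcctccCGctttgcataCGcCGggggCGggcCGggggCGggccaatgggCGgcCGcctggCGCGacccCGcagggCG

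Hoxd1, chr2:74762730-74762979, plus strand, in a Haglr exon: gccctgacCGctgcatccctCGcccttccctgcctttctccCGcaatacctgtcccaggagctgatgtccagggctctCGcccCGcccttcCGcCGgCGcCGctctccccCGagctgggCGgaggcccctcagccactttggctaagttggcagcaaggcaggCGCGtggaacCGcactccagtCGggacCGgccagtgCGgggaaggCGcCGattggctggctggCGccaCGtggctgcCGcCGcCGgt

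These windows differ in CpG content. The upstream Hoxa10 window held 7 CpG pairs and the inner one 20, while the Hoxa13 window held 35 and the Hoxd1 window 24. RefSeq windows were found for 22 of the 39 genes, 24 in all, and their median was 12.5 CpG pairs against 6 over all 32851 mouse windows of this length. Their median GC content was 58.6%, against 52.4% over all windows. Motifs were searched on both strands: CCAAT lay in 14 of 24 Hox windows (58.3%) against 33.8% of all windows, GGGCGG in 10 (41.7%) against 32.7%, and TATAAA in 4 (16.7%) against 12.4%. The Hox-Pbx type motif TGATTNAT lay in 2 (8.33%) against 2.82%. GGGCGG contains a CpG pair, so its count moves with CpG content.

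Between E13.5 and E16.5 most Hox genes rose. Of the 31 tested, 24 were higher at E16.5, 2 were lower and 5 did not pass the test. Over all genes tested, 80.1% were called in this comparison, 45.5% higher and 34.6% lower. Among the 9249 genes tested with a mean under 100 normalized counts, the range of most Hox genes, 57.6% were higher and 12.6% lower. The median Hox log2 fold change was 2.92, or 2.17 with the 12 genes without reads at E13.5 set at their bound, against 0.31 over all genes. The rise covered 6 of 6 tested anterior genes, 9 of 11 central genes and 9 of 14 posterior genes.

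The E16.5 signal was concentrated in 1 or 2 genes of each cluster. Hoxb7, a central gene that acts in the thoracic region, had 6.33, 6.53 and 2.1 normalized counts at E13.5 and 428, 394 and 365 at E16.5, a change of 6.16 on the log2 scale (SE 0.27, adjusted p = 2e-12). Hoxa7, its paralog in another cluster, went from 6.33, 3.26 and 6.31 to 434, 338 and 345, a change of 5.92 on the log2 scale (SE 0.37, adjusted p = 2e-10). For both genes every E16.5 library was far above every E13.5 library.

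Hoxc9, which sets thoracic identity in the spinal cord, had no read at E13.5 and 294, 247 and 287 normalized counts at E16.5, at least 86.4-fold higher (adjusted p = 2.1e-13, limma). Hoxd1, the most anterior gene of its cluster, went from 10.6, 10.9 and 12.6 to 267, 211 and 178, a change of 4.14 on the log2 scale (SE 0.27, adjusted p = 3.4e-10). Hoxa7, Hoxb7, Hoxc9 and Hoxd1, grouped after their values were seen, made up 63.9% of the Hox sum at E16.5 and 11.4% at E13.5. Each was the highest gene of its cluster at E16.5, per kilobase of exon as well, and they belong to 3 different paralog groups, 1, 7 and 9.

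Other genes rose to lower levels. Hoxb13, the posterior end gene of its cluster, which acts in the prostate and tail tip, rose from 11.6, 4.35 and 11.6 to 152, 115 and 134. Hoxa3, needed for thymus and parathyroid, had no read at E13.5 and 106, 93.9 and 94.2 at E16.5, at least 30.7-fold higher. Hoxc8, a thoracic gene, went from 2.11, 0 and 0 to 57.3, 89.3 and 83.1. In these 3 genes the stages did not overlap, and the adjusted p values were 2.9e-09, 1.8e-09 and 2.6e-09 (limma). Hoxd8 rose from 10.6, 18.5 and 4.21 to 66.8, 68.8 and 64.1. Hoxd9, its neighbour, rose from 7.39, 2.18 and 2.1 to 34.4, 27.9 and 34.03. Both were higher in every E16.5 library than in any E13.5 library.

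Hoxa10 and Hoxa11 fell, against the direction of the other called genes. Hoxa10 dropped from 79.2, 60.9 and 83.1 at E13.5 to 8.59, 3.72 and 11.1 at E16.5, a change of -3.19 on the log2 scale (SE 0.51, adjusted p = 2.1e-05). Hoxa11 went from 11.6, 8.71 and 9.46 to 1.91, 0 and 5.54, a change of -2.02 on the log2 scale (SE 0.58, adjusted p = 0.0046). Neither gene's stages overlapped. In this comparison 24 of the 31 tested Hox genes had stages that did not overlap, as had 80.2% of all genes tested. Hoxa13, beside them, had 32.4, 26.04 and 43.5 at E16.5 and overlapped with E13.5, with a change of 0.02 on the log2 scale (SE 0.51, adjusted p = 0.97). The gene Evx1, a homeobox gene beyond the posterior end of the cluster, went from 283, 251 and 235 to 4.77, 14.9 and 26.1 over the same interval. Its start lies 52.6 kb from that of Hoxa13 and 72.6 kb from that of Hoxa10. Antisense gene Hoxa11os shares 35.0% of the exon bases of Hoxa11. Since the use of strand in counting is not stated, reads within the shared bases cannot be assigned to 1 of the pair. Hoxa11os averaged 3.17 at E13.5 and 0.318 at E16.5.

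**Figure D2:**
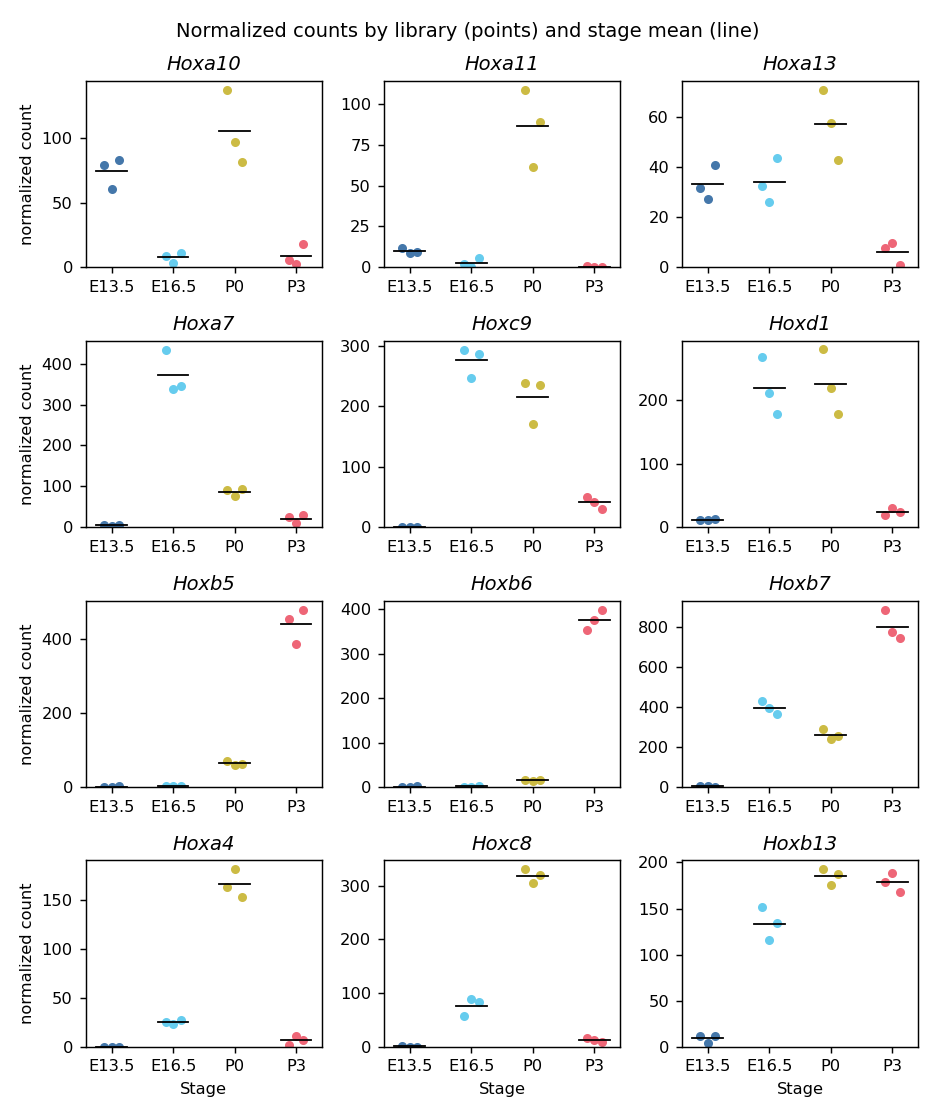
Points give the normalized count of 12 Hox genes in each library by stage, and lines give stage means. The top row shows Hoxa10 and Hoxa11 low at E16.5 and all 3 genes of the row low at P3, the second row shows Hoxa7 and Hoxc9 highest at E16.5 and Hoxd1 high at E16.5 and P0, and the third row shows Hoxb5, Hoxb6 and Hoxb7 highest at P3.

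At P0 Hox expression was at its broadest. Of the 39 genes, 32 had their highest stage mean at P0, 2 at E16.5 (Hoxa7 and Hoxc9), 5 at P3 (Hoxb3, Hoxb5, Hoxb6, Hoxb7 and Hoxb8) and 0 at E13.5. Among the 31 tested Hox genes, 25 had their highest mean at P0. Over all genes tested 29.9% had their highest mean at P0, and 49.7% of those with a mean under 100. Hoxa5, Hoxa11, Hoxb2, Hoxc6, Hoxc10, Hoxc12 and Hoxd11, which are among the 25, passed the filter only with the P0 libraries. For these genes a high P0 level was a condition of being tested. The number of Hox genes with a mean of at least 10 was 4 at E13.5 and 18 at E16.5, then 30 at P0 and 16 at P3.

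Against E16.5, 19 of the 31 tested genes were higher at P0, 1 was lower and 11 did not pass the test. Among the higher genes, Hoxa5, Hoxa11, Hoxb2, Hoxc6, Hoxc10, Hoxc12 and Hoxd11 would not have passed the filter without the P0 libraries. A high P0 level was thus a condition of their test. Of all genes tested, 61% were called in this comparison, 27.6% higher and 33.4% lower; among genes with a mean under 100 it was 32.7% higher and 10.2% lower. The median log2 fold change was 1.63 for the Hox genes and -0.01 over all genes. The stages did not overlap for 25 Hox genes, and for 69.5% of all genes tested. Hoxc8 rose from 57.3, 89.3 and 83.1 to 331, 305 and 320.0, a change of 2.07 on the log2 scale (SE 0.43, adjusted p = 0.00058). Hoxa4, which acts in cervical vertebrae, rose from 25.8, 23.2 and 26.9 to 163, 181 and 153, a change of 2.66 on the log2 scale (SE 0.46, adjusted p = 9.8e-05). For both genes the lowest P0 library was more than 3 times the highest E16.5 library.

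The posterior Hoxa genes that had fallen came back at P0. Hoxa10 had 137, 97.3 and 81.1 normalized counts at P0, a change of 3.67 on the log2 scale (SE 0.51, adjusted p = 9.4e-06) from E16.5. Hoxa11 had 109, 61.4 and 88.8, a change of 4.99 on the log2 scale (SE 0.58, adjusted p = 1.4e-06). Both were above every E16.5 library, and Hoxa10 overlapped with its own E13.5 level (adjusted p = 0.39 for P0 against E13.5, limma). Hoxa11 at P0 was above its E13.5 level, with a change of 2.97 on the log2 scale (SE 0.58, adjusted p = 0.00016).

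Genes that were lower at E16.5 also rose in Hoxb, Hoxc and Hoxd. Hoxb5, a gene of the enteric and haematopoietic lineages, went from 3.82, 1.86 and 3.17 to 69.97, 59.2 and 62.3, with an adjusted p of 5e-07 (limma). Hoxc13, a gene of hair and nail, went from 11.5, 24.2 and 19.8 to 97.1, 60.3 and 67.1, and Hoxd9 from 34.4, 27.9 and 34.03 to 101, 85.3 and 99.9. At E13.5 Hoxc13 had 1.06, 1.09 and 6.31 and Hoxb5 0, 0 and 2.1. No E16.5 library overlapped with a P0 library in these 3 genes. Hoxd13, the digit and genital gene at the end of its cluster, went from 14.4 ± 3.29 to 48.9 ± 7.02, and Hoxd11 from 1.2 ± 0.576 to 21.1 ± 3.5.

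Hoxa7 was the only gene called lower at P0, at 90.3, 76.6 and 92.2 normalized counts, a change of -2.09 on the log2 scale (SE 0.37, adjusted p = 0.00012) from E16.5. Hoxb7, Hoxc9 and Hoxd1 did not pass the test. Hoxb7 had 289.8, 240.2 and 254, below all 3 E16.5 libraries, with a change of -0.60 on the log2 scale (SE 0.27, adjusted p = 0.063); edgeR and DESeq2 called it lower. Hoxc9 had 238, 171 and 236 and Hoxd1 279.9, 219 and 179. Hoxb13 had 193, 175 and 187, above its 3 E16.5 libraries, with a change of 0.47 on the log2 scale (SE 0.29, adjusted p = 0.17).

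The comparison of P0 with E13.5, which does not cross the genotype tag, covers both steps. In it 29 of 31 tested Hox genes were higher and 0 lower, and the 2 that did not pass were Hoxa10 and Hoxa13. The higher genes include Hoxa5, Hoxa11, Hoxb2, Hoxc6, Hoxc10, Hoxc12 and Hoxd11, which passed the filter only with the P0 libraries. Of all genes tested, 86.1% were called, 45.7% higher and 40.5% lower; of those with a mean under 100, 65.9% were higher. For 29 of the 31 Hox genes the 2 stages did not overlap, as for 88.1% of all genes tested. The change was 0.47 on the log2 scale (SE 0.51, adjusted p = 0.39) for Hoxa10 and 0.75 on the log2 scale (SE 0.51, adjusted p = 0.18) for Hoxa13, whose P0 libraries, at 71.01, 57.6 and 42.96, lay just above those of E13.5. The bounds for genes without reads at E13.5 were at least 67.3-fold for Hoxc9, at least 51.8-fold for Hoxa4 and at least 46.1-fold for Hoxa3.

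Between P0 and P3 the Hox genes split by cluster. Of the 31 tested, 20 were lower at P3, 3 were higher and 8 did not pass the test. Over all genes tested 76.5% were called, 36.4% lower and 40.1% higher, and of those with a mean under 100, 51.6% were lower and 12.4% higher. Of the tested genes, 9 of 9 in Hoxa, 6 of 7 in Hoxc and 4 of 6 in Hoxd were lower, against 1 of 9 in Hoxb. Among the lower genes, Hoxa5, Hoxa11, Hoxb2, Hoxc6, Hoxc10, Hoxc12 and Hoxd11 would not have passed the filter without the P0 libraries. These calls, and the counts by cluster, therefore lean on the filter. Hoxb3 passed it only through its P3 libraries. All 3 genes called higher lay in Hoxb. The median log2 fold change was -4.11 for Hoxa, -3.17 for Hoxc, -2.57 for Hoxd and -0.05 for Hoxb, against 0.05 over all genes. Whether the clusters differ from each other was not tested. Libraries of P0 and P3 did not overlap for 25 Hox genes, and for 81% of all genes tested.

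Hoxb5, Hoxb6 and Hoxb7, which lie side by side, rose. Hoxb7 (ENSMUSG00000038721, chr11:96286623-96290162, plus strand) went from 289.8, 240.2 and 254 at P0 to 889, 774 and 746 at P3, a change of 1.62 on the log2 scale (SE 0.27, adjusted p = 3.9e-05). Hoxb5 (ENSMUSG00000038700, chr11:96303336-96306121, plus strand) went from 69.97, 59.2 and 62.3 to 454, 386 and 479, a change of 2.76 on the log2 scale (SE 0.44, adjusted p = 2.3e-05). Hoxb6 (ENSMUSG00000000690, chr11:96292476-96301569, plus strand), the gene between them, went from 16.2, 12.5 and 15.9 to 353, 375 and 399.8, a change of 4.58 on the log2 scale (SE 0.52, adjusted p = 5.2e-07). In all 3 genes every P3 library was above every other library of the series. Grouped after their values were seen, they summed to 6.39 ± 0.12 at E13.5 and 399.9 ± 31 at E16.5, then 340.0 ± 32.7 at P0 and 1618 ± 80.6 at P3, and made up 72.1% of the Hox sum at P3 against 12% at P0.

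The 3 genes did not share the earlier course. At E16.5 Hoxb7 already had 428, 394 and 365, whereas Hoxb5 had 3.82, 1.86 and 3.17 and Hoxb6 0, 0.93 and 2.37, 10 and 4 reads in all. At E13.5 Hoxb6 had 0, 0 and 2.1. On the other side of Hoxb7, Hoxb8 had 9.69, 3.93 and 0 at P3, 14 reads in all, and did not reach the filter. Beyond it, Hoxb9 went from 90.9, 49.4 and 63.2 to 49.4, 29.5 and 58.7, a change of -0.57 on the log2 scale (SE 0.42, adjusted p = 0.23). Toward the anterior end Hoxb4 had 46.5, 76.1 and 40.1 and 48.5, 34.4 and 49.6 and did not pass the test.

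The ends of the Hoxb cluster kept overlapping levels. Hoxb13 had 193, 175 and 187 at P0 and 178, 189 and 168 at P3, a change of -0.05 on the log2 scale (SE 0.29, adjusted p = 0.87). Hoxb1, a hindbrain gene, had 102, 74.99 and 68.5 and 69.8, 55.98 and 48.6, a change of -0.48 on the log2 scale (SE 0.52, adjusted p = 0.41). Hoxb2 was the member of the cluster called lower, from 60.6, 41.3 and 53.1 to 9.69, 8.84 and 10.1; 27.3% of its exon bases lie in the antisense gene Hoxb3os. The 5 Hoxb genes not called were Hoxb1, Hoxb3, Hoxb4, Hoxb9 and Hoxb13, and for 4 of them the call depended on scaling. Scaling to equal library totals, which moves every log2 fold change of this comparison by -0.84, called Hoxb1, Hoxb4, Hoxb9 and Hoxb13 lower, and median-of-ratios factors, which move it by -0.44, called Hoxb9 lower.

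The genes that fell did so to low levels. Hoxc8 went from 331, 305 and 320.0 at P0 to 15.5, 12.8 and 8.1 at P3, a change of -4.65 on the log2 scale (SE 0.43, adjusted p = 4.7e-08). Hoxd1 went from 279.9, 219 and 179 to 19.4, 29.5 and 24.3, a change of -3.15 on the log2 scale (SE 0.27, adjusted p = 1.5e-08). Hoxa11 went from 109, 61.4 and 88.8 to 0.969, 0 and 0, where a single read was counted over the 3 libraries, and Hoxa10 from 137, 97.3 and 81.1 to 5.81, 2.95 and 18.2. Every P3 library lay below every P0 library in these 4 genes.

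Anterior and central Hoxa genes fell with the posterior ones. Hoxa3 went from 145, 152 and 145 to 1.94, 15.7 and 8.1, and Hoxa4 from 163, 181 and 153 to 1.94, 10.8 and 7.09. Hoxa7, the leading Hoxa gene at E16.5, was at 24.2, 9.82 and 29.4. All 9 tested Hoxa genes were called lower, as described above for the cluster. In Hoxc, Hoxc9 fell to 50.4, 42.2 and 30.4 and Hoxc13 to 16.47, 23.6 and 34.4, so both kept reads in every P3 library. Hoxd8 had 78.3, 69.01 and 66.1 at P0 and 32.9, 51.1 and 55.7 at P3 and did not pass the test, and Hoxd9 fell from 101, 85.3 and 99.9 to 16.47, 23.6 and 20.2.

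P3 against E16.5, the other comparison within 1 genotype tag, gave 6 of 31 Hox genes higher, 11 lower and 14 not called. Of all genes tested 69.5% were called, 34.2% higher and 35.2% lower. Stages without overlap were found for 19 Hox genes and for 71.6% of all genes tested. Of the genes with a mean under 100, 16.9% were higher and 37.6% lower. The 6 higher genes were all in Hoxb: Hoxb3, Hoxb4, Hoxb5, Hoxb6, Hoxb7 and Hoxb9. Of these, Hoxb3 passed the filter only through its P3 libraries. The largest log2 fold changes were 7.66 for Hoxb6 and 6.83 for Hoxb5, both from fewer than 5 normalized counts in each E16.5 library. Of the lower genes, 5 were in Hoxa, 4 in Hoxc and 2 in Hoxd, and none in Hoxb. Hoxa7 had the lowest value, a change of -4.20 on the log2 scale (SE 0.37, adjusted p = 2.9e-08).

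**Figure D3:**
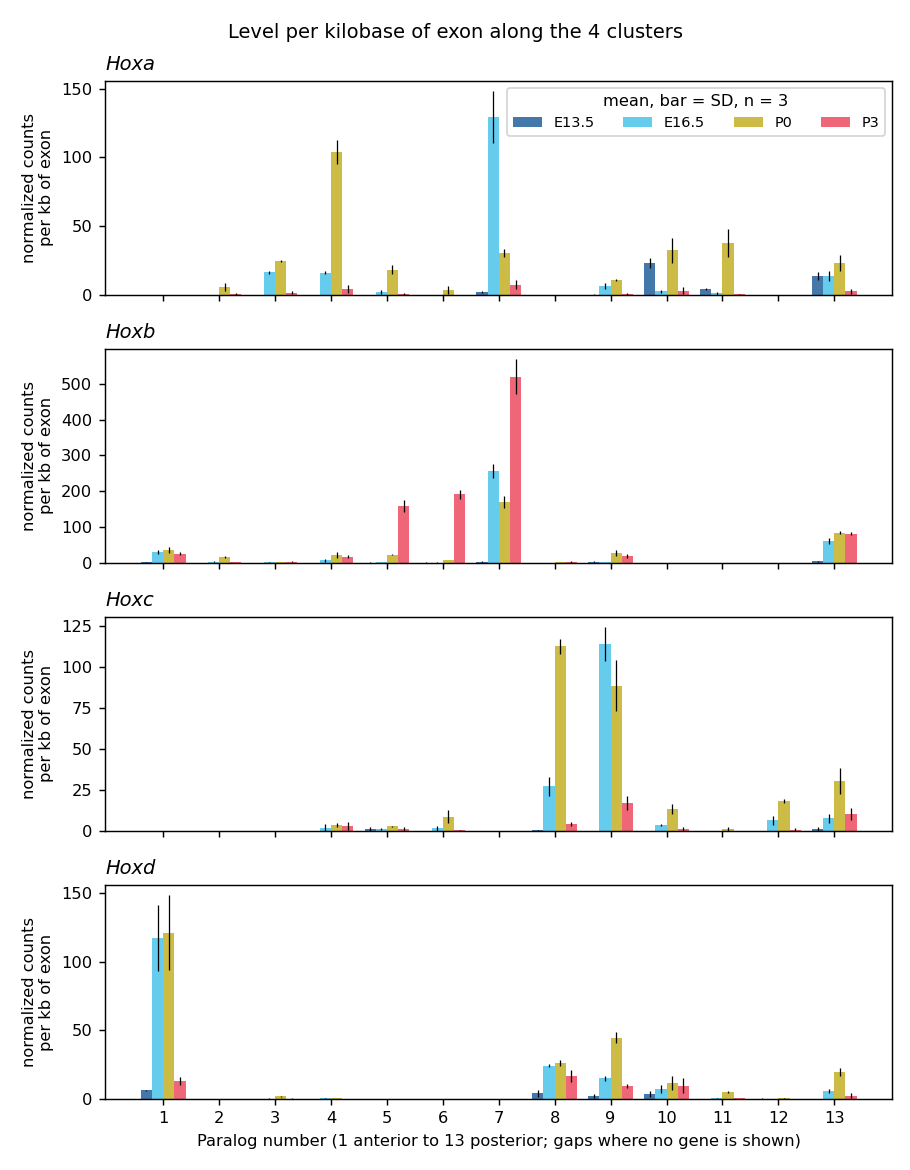
Bars give the mean normalized count per kilobase of exon by paralog number in the 4 clusters, with the SD over 3 libraries and 1 gene not shown, coloured by stage; each cluster has its own axis from 0. The tallest bars are Hoxb7 at P3, at 520.0 ± 48.96, and Hoxb7 at E16.5, at 256 ± 20.6.

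To compare genes with each other, counts were divided by exon length. Hoxb7 was the highest Hox gene on this scale, at 520.0 ± 48.96 normalized counts per kilobase at P3, which placed it above 79.8% of all genes tested. Hoxb6 followed at 191 ± 11.99 and Hoxb5 at 158 ± 17.3, both at P3. At E16.5 the order after Hoxb7 was Hoxa7 at 129 ± 18.7, Hoxd1 at 117 ± 24.2 and Hoxc9 at 114 ± 10.4, which did not differ beyond their spread. At P0 Hoxb7 led at 169 ± 16.6, followed by Hoxd1 at 121 ± 27.4, Hoxc8 at 113 ± 4.45 and Hoxa4 at 104 ± 8.999. At E13.5 Hoxa10 was highest at 22.8 ± 3.61. The median over all genes tested was 38.2, 54.2, 58.6 and 52.0 per kilobase at the 4 stages in order, and 0, 5, 6 and 4 Hox genes lay above it.

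Over all 4 stages, 30 of 31 tested Hox genes passed the F-test, as did 95.2% of all genes tested. The exception was Hoxd10, with 2.11, 10.9 and 6.31 at E13.5 and 7.63, 14.9 and 16.6 at E16.5, then 25.6, 10.3 and 26.5 at P0 and 25.2, 20.6 and 6.07 at P3. Libraries of all stages overlapped for this gene. It was called higher at P0 against E13.5 (adjusted p = 0.017, limma), a call that was lost without E13.5 library 1 (adjusted p = 0.0950), P0 library 1 (0.063) or P0 library 4 (0.066).

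The 8 genes left out of the tests were low throughout. Hoxa2 had 15.1, 10.3 and 5.31 at P0, and Hoxd3 9.4, 8.15 and 5.79, and both had fewer than 2 normalized counts in any library of another stage. Hoxc5 averaged 3.58 ± 3.31 at E13.5 and 3.04 ± 1.263 at E16.5, then 8.27 ± 1.32 at P0 and 3.26 ± 4.02 at P3. Hoxa6, Hoxb8, Hoxc11, Hoxd4 and Hoxd12 had fewer than 20 reads in any stage. Exons of Hoxd3 and Hoxd4 overlap other gene models over 62.8% and 52.3% of their length, and 60.2% and 46.8% of their 50-base words recur in transcripts of other genes, so reads may have been left uncounted or split there. Of the 39 genes, 16 overlap another gene model in their exons and 7 over more than 20% of their bases; beside the 2 just named and Hoxa11 and Hoxb2, these were Hoxb3 (52.9%), Hoxa3 (27.1%) and Hoxa7 (20.4%).

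Genes that act with the Hox proteins were looked at from lists made for the purpose. Beside the counts of these and the marker lists stand the shares over all genes tested. They were 45.5% higher and 34.6% lower at E16.5 against E13.5, and 27.6% and 33.4% at P0 against E16.5. At P3 against P0 they were 40.1% and 36.4%. The TALE cofactors, homeodomain proteins that bind DNA beside Hox proteins, counted 9 genes. Of these 6 were higher and 2 lower at E16.5 against E13.5, 6 higher and 1 lower at P0 against E16.5, and 1 higher and 7 lower at P3 against P0. Meis1 went from 26.4, 35.9 and 31.5 at E13.5 to 332, 303 and 259.6 at E16.5, 603, 531 and 518 at P0 and 66.9, 92.3 and 47.6 at P3. Meis2 averaged 288 ± 31.7, 278 ± 26.4, 916 ± 62.7 and 98.8 ± 9.27 at the 4 stages, and Meis3 13.9 ± 8.27, 85.1 ± 28.2, 312 ± 63.5 and 21.3 ± 8.06. All 3 Meis genes were highest at P0, and at P3 all 3 were below their P0 libraries without overlap, while Hoxb5, Hoxb6 and Hoxb7 were at their highest.

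The noncoding genes inside the clusters, 10 in all, reached the filter in 5 cases. Of those 5, 3 rose at E16.5 against E13.5, 3 rose at P0 against E16.5, 4 fell at P3 against P0 and 0 moved the other way. Haglr, which starts beside Hoxd1 on the other strand, had 3.17, 1.09 and 1.05, then 61.1, 56.7 and 65.7, 104, 89.7 and 112 and 1.94, 4.91 and 19.2 at the 4 stages in order. Like Hoxd1 it was high at E16.5 and P0 and low at E13.5 and P3. Hoxaas2, inside Hoxa, averaged 20.5 at P0 and at most 2.54 at the other stages, and Hottip, beside Hoxa13, 17.2 at P0 and at most 1.37 elsewhere.

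Genes beside the clusters moved in both directions over the first and last steps. Of 13 tested flanking genes, 5 were higher and 8 lower at E16.5 against E13.5, 0 higher and 7 lower at P0 against E16.5, and 5 higher and 5 lower at P3 against P0. Evx1, next to Hoxa13, stayed low after E13.5, at 15.3 in E16.5 libraries on average, 15 at P0 and 4.54 at P3. Skap1, beyond Hoxb1, averaged 6.43 at E13.5 and 618 at E16.5, then 593 at P0 and 442 at P3. Ttll6, beyond Hoxb13, averaged 1.41, 68.7, 116 and 5.56 at the 4 stages in order.

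Regulators of the clusters moved in both directions. Of 13 tested genes known to activate Hox clusters, 5 were higher and 4 lower at E16.5 against E13.5, 7 higher and 3 lower at P0 against E16.5, and 4 higher and 4 lower at P3 against P0. Cdx4, a caudal-type homeobox gene that drives central and posterior Hox genes in the embryo, averaged 2.11, 27.6, 83.3 and 32.4 at the 4 stages. Cdx2, of the same family, averaged 0.352, 6.28, 46.6 and 1.94. The retinoic acid receptor gene Rarb averaged 1.78, 55.5, 255 and 68.2. These 3 genes were highest at P0.

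Of 25 Polycomb genes, 6 were higher and 15 lower at E16.5 against E13.5, 8 higher and 12 lower at P0 against E16.5, and 18 higher and 4 lower at P3 against P0. Suz12, a core subunit of the complex that methylates H3K27, averaged 4587 ± 378 at E13.5 and 766 ± 87.7 at E16.5, then 1079 ± 115 at P0 and 2444 ± 222 at P3. Rnf2, the ubiquitin ligase of the other Polycomb complex, averaged 13298 ± 764, 2862 ± 257, 6349 ± 701 and 7434 ± 122, and the histone-binding Rbbp4 46814 ± 1788, 9921 ± 2136, 8781 ± 853 and 31072 ± 2664. For these 3 genes, named for the largest called changes of the list, the highest stage was E13.5. Whether Polycomb genes bear on the Hox values was not tested.

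Of 14 other tested homeobox genes with a place along the axis, 9 were higher and 4 lower at E16.5 against E13.5, 11 higher and 0 lower at P0 against E16.5, and 4 higher and 7 lower at P3 against P0. Lhx1, a kidney and head gene, averaged 3700.1 at E13.5 and 86.9 at E16.5, then 115 at P0 and 3168 at P3. Otx2, a gene of the head, averaged 1845, 65.1, 413 and 4.03, and Emx2, a urogenital and forebrain gene, 6.42, 14.8, 227 and 5.92.

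Most called markers of mesenchyme or peritubular cells and of Sertoli cells moved in the direction of the Hox sum at each step. Of the 15 mesenchyme or peritubular markers, all tested, 12 were higher and 1 lower at E16.5 against E13.5, 10 higher and 0 lower at P0 against E16.5, and 0 higher and 9 lower at P3 against P0. Most Hox genes moved in the same directions over these steps, and the part of these cells in the result was not tested. None of the 15 marker genes was at 0 in all libraries of a stage. Hoxb5, Hoxb6 and Hoxb7 rose between P0 and P3, a step at which none of the 15 markers was called higher and 9 were called lower. Dcn, which was not called, went from 342 ± 9.67 to 453 ± 55.7. Fgf9, from the Sertoli cell list, was called higher and went from 82.6 ± 3.29 to 449 ± 20.6. The source of the Hoxb reads was not tested. Of the 11 tested Sertoli cell markers, 5 were higher and 1 lower at E16.5 against E13.5, 10 higher and 1 lower at P0 against E16.5, and 1 higher and 9 lower at P3 against P0.

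Smaller marker lists moved over these steps as well. Of 6 tested mast cell markers, 3 were higher at E16.5 against E13.5, 6 higher at P0 against E16.5 and 6 lower at P3 against P0. Their 7 listed genes summed to 24.2 to 38.8 normalized counts at E16.5 and, at P3, to 3.88 and 3.04 in libraries 1 and 4 and 322 in library 3. Of 6 tested Leydig cell markers, 2 were higher and 1 lower at E16.5 against E13.5, 1 was higher at P0 against E16.5 and 6 were lower at P3 against P0, where Insl3 and Lhcgr were at 0. Of 6 endothelial markers, 5 were higher and 1 lower at E16.5 against E13.5, 3 higher at P0 against E16.5 and 4 lower at P3 against P0. Tie1 and Emcn were at 0 at E13.5, although the endothelial sum was highest there, at 4429 to 5192. Of 6 tested erythroid markers, 4 were higher at E16.5 against E13.5 and 5 lower at P3 against P0, and their sums overlapped between E16.5, at 1796 to 2561, and P0, at 1632 to 2629. Of 6 tested macrophage markers, 4 were higher at E16.5 against E13.5, 2 higher and 1 lower at P0 against E16.5, and 1 higher and 3 lower at P3 against P0. Of 7 markers of mesonephric or epididymal epithelium, 5 were higher and 2 lower, then 4 higher and 1 lower, then 2 higher and 4 lower over the 3 steps in order. Of 5 tested neural markers, 1 was higher and 1 lower, then 3 higher and 2 lower, then 3 lower. The 10 germ cell markers went the other way at birth, with 1 higher and 9 lower at P0 against E16.5 and 8 higher and 1 lower at P3 against P0, after 4 higher and 5 lower at E16.5 against E13.5. The germ cell directions are those of normalized counts, where the size factors were largest at P0. Relative to the normalized library totals, the germ cell sums at P0 lay below those at E16.5 but above those at P3. What part the cells of these lists had in the Hox values was not tested.

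Within a stage the marker sums varied by different amounts, some widely and some as little as the Hox sum. At E16.5 the highest library had 12 times the Leydig marker sum of the lowest and 2.00 times the Sertoli marker sum. The mesenchyme marker sum varied 1.15-fold there, as did the Hox sum. At P0 the ratios were 4.79 for the Leydig sum, 1.95 for the Sertoli sum and 1.175 for the Hox sum, while the mesenchyme marker sum varied 1.03-fold. The library with the highest Leydig sum at E16.5 was library 4, whose Hox sum of 1919 lay between the other 2. At each of the other stages library 1 had both the highest Leydig sum and the highest Hox sum. By Hox sum and by mesenchyme sum the libraries ranked in the same order at E13.5, E16.5 and P0, but not at P3. Whether the Hox sum follows any of these cells was not tested.

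**Figure D4:**
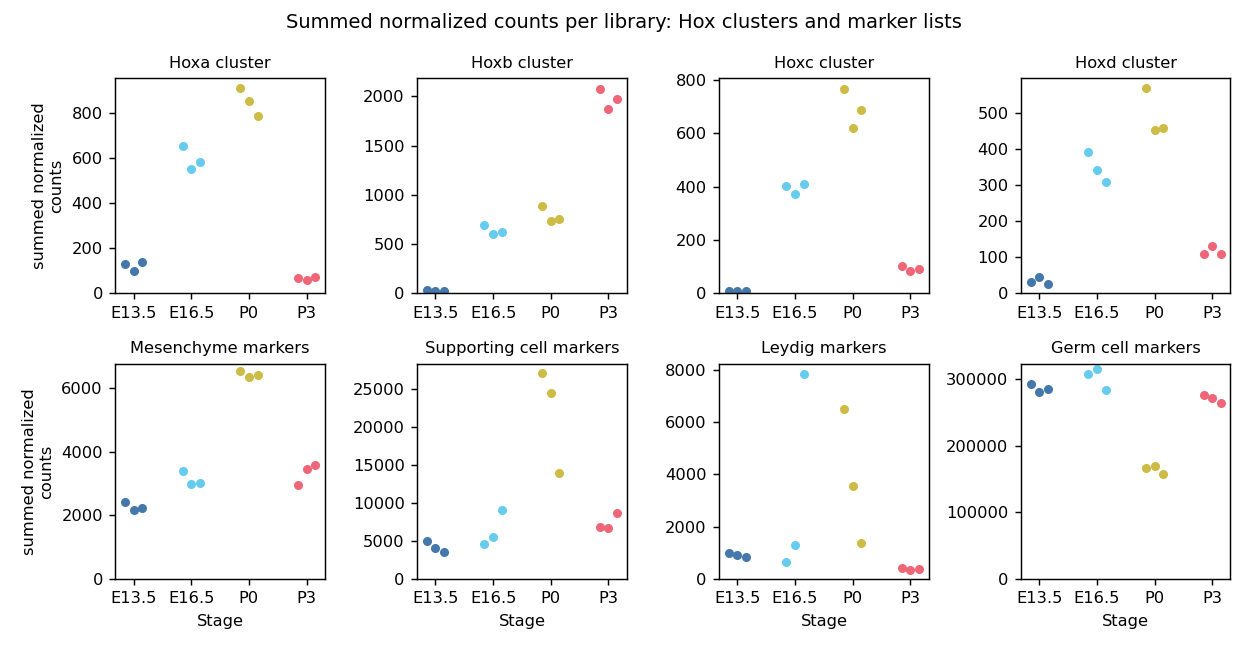
Each point is 1 library: the upper row gives the summed normalized counts of each Hox cluster by stage, and the lower row those of 4 marker lists, each panel with its own axis from 0. Hoxa, Hoxc and Hoxd are highest at P0, as are the mesenchyme and supporting (Sertoli) cell markers, whereas Hoxb is highest at P3. The germ cell markers are lowest at P0 on this scale, where the size factors are largest.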

How the data were processed

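RNA was sequenced from 12 samples of male germ cells, 3 at each of 4 stages. Per the labels' protocols, a low-input SMART-seq v4 kit and a TruSeq mRNA kit were used. The submitters' processing notes name bcl2fastq 2.20, cutadapt 1.18, HISAT2 2.1.0, featureCounts 1.5.2, DESeq2 1.26.0 and the build mm10 (GRCm38), without their roles. The annotation release, the use of strand and what was done with reads that fit more than 1 gene are not given in the sources used here. The signal the authors deposited is the reads of each gene over a library's size factor (RLE, per the name of the table), here a normalized count. Dividing by the smallest value of a library gave whole numbers for 100% of values, within 0.001, and these were taken as reads. The totals were 40946616 to 51533747 reads per library, and a count of 0 was taken to allow up to 3 reads. Intervals of this kind cover counting error only.

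Columns carry the stage and the numbers 1, 3 and 4, which are not the replicate numbers of the titles, so columns were assigned to stages only. Symbols matched 55141 of 55487 identifiers. Positions, exon lengths and overlaps came from GENCODE M21 (GRCm38), and promoter windows from RefSeq (GRCm38.p6). Genes that reached 10 normalized counts in 3 or more libraries were tested as log2(normalized count + 1) with limma 3.58.1 in R 4.3.3 (lmFit, contrasts and eBayes with a trend), with 8 residual degrees of freedom shared by the 4 stages, in 5 comparisons and 1 F-test. P-values were adjusted over all genes tested. The method was tested on simulated data. Alternatives were TMM, median-of-ratios and equal-total scaling, pseudocounts (0.1, 10), testing every gene or only those averaging 100 or more, edgeR 4.0.16 and DESeq2 1.42.0 on recovered reads, only the 2 stages compared, a minimum change of 1 on the log2 scale, leaving out each library, the longest transcript as length and, added after seeing the data, the column number as a replicate block. Python 3.11.15 with pandas 2.3.3 and matplotlib 3.10.9 was used for the rest.

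The Hox genes and all lists were chosen with earlier results of these data known. Values in every library are given for the 3 genes of each cluster with the highest mean and, per consecutive comparison, for the called genes with the 3 top and 3 bottom fold changes, 15 genes in all. Other Hox genes with values were chosen after these were seen. Listed genes are named for the 3 largest called changes of their list. Tbxt, listed among the activators, was not matched. The values of 1 Hox gene are not reported here; it stays in the counts and sums.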

Additional observations from a re-analysis of the deposited data

How the results depend on the processing

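No called Hox gene changed direction under any alternative. Testing only genes with a mean of at least 100 leaves 7 Hox genes, of which 7 passed the F-test (30 of 31 otherwise), 7 were called at E16.5 against E13.5 (26), 4 at P0 against E16.5 (20), 6 at P3 against P0 (23), 7 at P0 against E13.5 (29) and 6 at P3 against E16.5 (17). Under every other alternative these counts stayed within 1.5 times. Leaving out 1 library at a time gave 24 to 31, 21 to 26, 15 to 22, 18 to 23, 23 to 29 and 15 to 18 calls in the same order, the lowest mostly without a P0 library, when only 26 Hox genes reached the filter. Of 3355 values of single genes under an alternative, 3251 kept direction and call, 61 gained a call and 43 lost one. At E16.5 against E13.5 the calls of Hoxd11 and Hoxc6 were each lost under 8 alternatives, among them without any 1 of the 3 E13.5 libraries, and Hoxb5 was lost with edgeR, DESeq2 and a pseudocount of 10. The call of Hoxd10 at P0 against E13.5 was lost without E13.5 library 1, P0 library 1 or P0 library 4. Hoxb7 at P0 against E16.5 gained a call under 9 alternatives. The cause was not tested. Equal library totals move the log2 fold changes by 0.51 for E16.5 over E13.5, 0.66 for P0 over E16.5 and -0.84 for P3 over P0. The column numbers 1, 3 and 4, which differ from those in the titles, were added as a replicate block after seeing the data. With this block 30, 26, 21, 23, 29 and 17 Hox genes were called in the same order, and Hoxb7 at P0 against E16.5 was the 1 call that changed (adjusted p = 0.047, limma). Deviations from the stage means did not pair by number: over 22384 genes, r was -0.04 to 0.042 for the 18 pairs of libraries with the same number and -0.07 to 0.053 for the 36 others, and 0 of 12 libraries correlated best with its own number at every other stage. Depth limits the genes with no more than 3 reads in each library of a stage, 25 at E13.5 and 9 at E16.5, then 2 at P0 and 11 at P3.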
